A study of Mus musculus with 21 samples.

Results

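The 6 chemokine receptors Ccr1, Ccr2, Ccr7, Cx3cr1, Cxcr4 and Ccrl2 were followed in mouse macrophages grown from bone marrow. They were found in the deposited count table by their Ensembl gene identifiers, and all 6, out of 23250 genes in the table, were also among the 13468 genes that passed the filter on low counts and were tested. The cells came from C57BL/6J bone marrow kept for 7 days in medium that held supernatant from cells making GM-CSF, a myeloid growth factor, and, per the series' design, they lacked the mannose receptor in every group, the untreated one included. They were exposed to FcMR, a recombinant protein that joins the Fc region of human IgG1 to the extracellular part of the mannose receptor, or to an isotype control, for 4 h, for 12 h or for 24 h. Untreated cells at 0 h made the seventh group. Each of the 7 groups held 3 libraries, 21 in all. No label says whether the 3 libraries of a group came from separate mice or cultures, so the p-values below measure only the spread between these libraries, which may be technical. The untreated group was sampled at 0 h only, so a difference between it and a treated group holds the time in culture as well as the treatment.

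Chemokine receptors are seven-pass membrane proteins that couple to inhibitory G proteins and steer leukocytes along gradients of chemokines. Ccr2 takes monocytes out of the bone marrow and into inflamed tissue, and Ccr1 and Cx3cr1 act in the recruitment, adhesion and survival of monocytes and macrophages. Ccr7 guides maturing dendritic cells to lymph nodes, and Cxcr4 holds leukocytes in the marrow in response to Cxcl12. Ccrl2 is an atypical member of the family that binds the chemoattractant chemerin without classical G protein signalling and presents it to neighbouring cells.

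The promoters of the receptors at the opposite ends of the FcMR response, Ccrl2 (higher) and Ccr2 (lower), are printed here because these members moved farthest from the isotype control. Both are RefSeq windows of GRCm38.p6 that run from 250 bases before to 50 bases after an annotated transcription start, 5′ to 3′ on the gene's strand. Ccrl2, the first of its 3 annotated start sites, minus strand of chr9:111057469-111057768, and Ccr2, plus strand of chr9:124101933-124102232, read as follows, with capitals marking a match to a searched motif.
Ccrl2: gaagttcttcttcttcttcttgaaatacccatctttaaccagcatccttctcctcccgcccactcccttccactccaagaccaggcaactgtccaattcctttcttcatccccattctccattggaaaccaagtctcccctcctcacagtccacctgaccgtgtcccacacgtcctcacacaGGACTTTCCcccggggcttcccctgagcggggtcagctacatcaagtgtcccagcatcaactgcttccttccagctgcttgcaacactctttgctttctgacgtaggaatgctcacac
Ccr2: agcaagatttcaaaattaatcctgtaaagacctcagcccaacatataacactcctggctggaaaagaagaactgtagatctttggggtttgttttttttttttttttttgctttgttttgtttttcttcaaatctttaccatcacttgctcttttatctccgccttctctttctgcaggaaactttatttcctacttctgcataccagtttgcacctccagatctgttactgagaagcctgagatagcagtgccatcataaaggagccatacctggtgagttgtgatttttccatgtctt
The capitals in the Ccrl2 window are GGACTTTCC, a form of the NF-kB site, at bases -68 to -60 from the start. These letters were chosen after the sequence had been seen, so the match is a description only. The same letters, on either strand, occurred in 113 of 32544 promoter windows of this length (0.347%). A longer NF-kB pattern was not in the window and occurred in 1.61% of all windows. The Ccr2 window, from 124101933 to 124102232, lies mostly inside the annotated span of the gene, which starts at 124101950. It therefore holds little sequence upstream of that annotated start. The Ccr2 window held none of the motifs searched on both strands: those NF-kB forms, AP-1 (TGANTCA, 7.79% of windows), the interferon-stimulated response element (3.45%), PU.1 (GAGGAAGT, 3.11%), its ETS core (GAGGAA, 28.1%, which lies within the PU.1 letters), CRE (TGACGTCA, 1.8%), C/EBP (TTGCNNAA, 10.8%), GAS (TTCNNNGAA, 8.33%), the glucocorticoid response element (ACANNNTGT, 6.83%) and the E-box (CACGTG, 7.17%). Promoter windows were matched for Ccr1, Ccr2, Cx3cr1, Cxcr4 and Ccrl2, 5 of the 6 members, and among the other windows only that of Ccr1 held a match, to GAGGAA at bases -129 to -124.

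Library totals ranged from 5532225 to 66729533 counts, a 12.1-fold range, so that 3 counts were worth 0.045 to 0.542 CPM (counts relative to the library total). Levels below are CPM scaled by TMM factors, with mean ± SD over the 3 libraries of a group where a mean is given. Mrc1, the mannose receptor gene, had between 0 and 11 counts in every library and was too low to test. Macrophage markers were present throughout, with the 9 markers summing to between 20532 and 35377 CPM per library, and T or NK cell and B cell markers summed to at most 8.13 CPM. In 2 cases, FcMR 12 h replicate 1 and isotype 4 h replicate 3, the library numbers in the titles stand out of the order of the groups, and values without both are given where they matter. Reads of a bulk sample do not tell fewer cells of a type from less mRNA per cell.

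Before treatment the receptors spanned a wide range of levels. On the scale of CPM per kb of median transcript length, untreated cells held Ccr1 at 141 ± 17.9, Ccr7 at 126 ± 7.04, Cxcr4 at 103 ± 8.83, Ccr2 at 23.9 ± 2.49, Ccrl2 at 17.5 ± 1.55 and Cx3cr1 at 0.731 ± 0.256. Ccr1 and Ccr7 lay within each other's spread, and so their order is not fixed by these libraries. Lengths of the union of exons gave Ccrl2 12.5 ± 1.11 and Ccr2 11.5 ± 1.2, which is the opposite order for that pair and within their spread. After 24 h of FcMR the levels per kb of median transcript were Ccr7 339.7 ± 15.8, Cxcr4 113 ± 8.52, Ccr1 94.3 ± 14.9, Ccrl2 55.4 ± 4.34, Ccr2 2.88 ± 0.672 and Cx3cr1 2.85 ± 0.139. Cxcr4 and Ccr1, and Ccr2 and Cx3cr1, then lay within each other's spread, and Ccr7 stood alone at the top. Lengths of the union of exons set Ccr2 (1.39 ± 0.324) apart from Cx3cr1 (2.37 ± 0.115), so that tie depends on the length used. Cxcr4 (84.3 ± 6.38) and Ccr1 (94.3 ± 14.9) stayed within their spread.

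**Figure D1:**
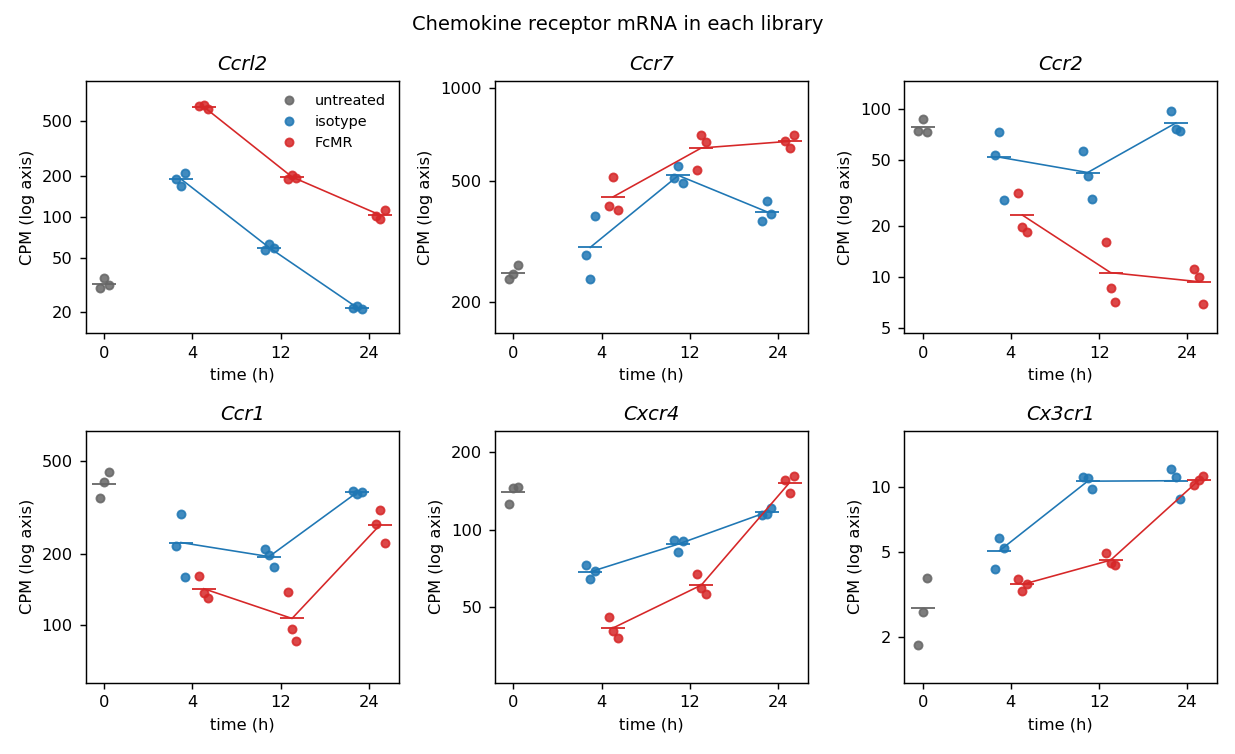
Each panel plots the CPM of one receptor (vertical log axis) in every library against time in h, with untreated, isotype and FcMR libraries in grey, blue and red, and horizontal ticks joined by lines for the group means. Ccrl2 is higher with FcMR at each time, and Ccr2 falls to a mean of 9.37 CPM at 24 h of FcMR while the isotype mean is 82.5 CPM.

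The first question the design poses is how the receptors differ between FcMR and its isotype control at the same time. At 4 h, 5 of the 6 members passed an adjusted p of 0.05 (edgeR's quasi-likelihood test, Benjamini-Hochberg over all genes tested), against 17.7% of all tested genes. Ccr7 and Ccrl2 were higher, against 8.62% of all genes, and Ccr1, Ccr2 and Cxcr4 lower, against 9.13%. At 12 h, 5 members passed (16.1% of all genes), with Ccrl2 higher (8.61%) and Ccr1, Ccr2, Cx3cr1 and Cxcr4 lower (7.49%). At 24 h, 4 members passed (20.9%), of which Ccr7, Cxcr4 and Ccrl2 were higher (11.4%) and Ccr2 lower (9.44%). FcMR and isotype libraries did not overlap for 4, 5 and 5 of the 6 members at 4 h, 12 h and 24 h, against 29.7%, 35.4% and 34.4% of all genes. The members were chosen with earlier results of these data known, so these counts describe them and support nothing further.

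**Figure D2:**
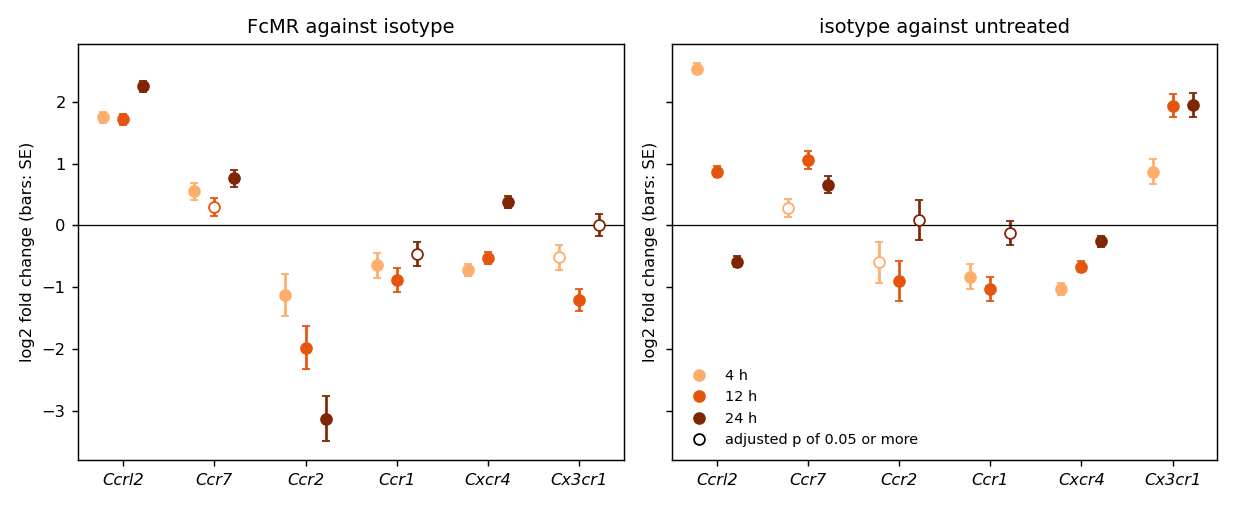
The log2 fold change of each receptor is plotted on the vertical axis with its SE as bars, for FcMR against isotype (left) and isotype against untreated (right), with time by colour and open symbols for an adjusted p of 0.05 or more. Ccrl2 lies above 0 and Ccr2 below 0 at all 3 times on the left, while Cxcr4 crosses from -0.72 at 4 h to 0.38 at 24 h.

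Ccrl2 (ENSMUSG00000043953.12, minus strand, chromosome 9, 111054486 to 111057519, GRCm38), the atypical chemerin receptor, rose with FcMR at every time. Untreated libraries held 30.02, 35.7 and 31.9 CPM. At 4 h the isotype libraries were at 190.3, 168 and 211 CPM and the FcMR libraries at 647, 659 and 613 CPM. The lowest FcMR library of 4 h thus stood far above the highest isotype library. Isotype values were 57.2, 62.9 and 59.2 CPM at 12 h and 21.6, 22.2 and 21.2 CPM at 24 h, and FcMR values were 191, 204 and 194 CPM and then 101, 96.7 and 112 CPM. Groups did not overlap at any time, and the receptor's level with FcMR at 12 h was close to that with isotype at 4 h. Against isotype the fold was 3.37 at 4 h (log2 fold change 1.75, SE 0.088, edgeR adjusted p 8.75e-10), 3.29 at 12 h (1.72, SE 0.088, 6.99e-10) and 4.76 at 24 h (2.25, SE 0.092, 1.13e-11). The isotype control itself was 5.82-fold above untreated at 4 h (edgeR adjusted p 7.46e-13) and 1.83-fold above at 12 h (3.1e-07), and it was 1.5-fold below at 24 h (4.34e-05). With FcMR the receptor was 19.6-fold above untreated at 4 h, and it was still 3.16-fold above at 24 h (edgeR adjusted p 1.09e-15 and 5.2e-11). The FcMR effect at 24 h exceeded that at 4 h by 0.5 on the log2 scale (SE 0.123, edgeR adjusted p 0.012). That difference did not pass with the factors of the authors' normalized table as offsets (0.39, adjusted p 0.285), with limma on that table (0.37, 0.3), without a filter on low counts (0.4, 0.157) or with a correction for GC content (0.39, 0.0526).

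Ccr7 (ENSMUSG00000037944.8, minus strand, chromosome 11, 99144196 to 99155077), the lymph node homing receptor, was the other member that was higher with FcMR without a change of direction. Untreated cells held 238, 247 and 265 CPM. At 4 h the isotype libraries were at 286, 239 and 382 CPM and the FcMR libraries at 413, 513 and 401 CPM, which do not overlap. At 12 h the isotype libraries were at 511, 556 and 492 CPM and the FcMR libraries 542, 705 and 670.0 CPM, with 1 FcMR library inside the isotype range. At 24 h the isotype libraries were at 369, 429 and 389 CPM and those with FcMR at 675, 639 and 702 CPM. The fold over isotype was 1.46 at 4 h (log2 fold change 0.55, SE 0.142, edgeR adjusted p 0.0116) and 1.7 at 24 h (0.76, SE 0.142, 0.000656). At 12 h the log2 difference was 0.3 (SE 0.141, adjusted p 0.185), which did not pass. It passed with a correction for GC content (0.37, adjusted p 0.00491) and without both libraries out of title order (0.4, 0.0163). The 4 h call was lost when isotype replicate 1 (0.51, adjusted p 0.0508) or FcMR replicate 2 (0.43, 0.068) was left out. Isotype against untreated passed at 12 h (2.08-fold higher, edgeR adjusted p 1.05e-05) and at 24 h (1.58-fold higher, 0.00106), and at 4 h the log2 difference was 0.28 (adjusted p 0.143), which passed without isotype replicate 2 (0.39, 0.0304) and with a correction for GC content (0.42, 0.00118). Against untreated, Ccr7 was higher with FcMR by 1.77-fold at 4 h, 2.56-fold at 12 h and 2.69-fold at 24 h. The change of the FcMR effect from 4 h to 24 h was 0.22 on the log2 scale (SE 0.2, adjusted p 0.525).

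Ccr2 (ENSMUSG00000049103.14, plus strand, chromosome 9, 124101950 to 124113557), the receptor for Ccl2, fell the farthest of the members. In untreated cells it was at 73.7, 87.3 and 72.7 CPM. At 4 h the isotype libraries held 52.99, 73.1 and 28.7 CPM and the FcMR libraries 31.7, 19.9 and 18.4 CPM. These ranges overlap, because isotype replicate 3 was below FcMR replicate 1. At 12 h the values were 56.5, 39.9 and 29.1 CPM with isotype and 16.1, 8.64 and 7.09 CPM with FcMR, and at 24 h they were 97.7, 75.8 and 74.02 CPM with isotype and 11.2, 9.96 and 6.95 CPM with FcMR. From 12 h on the groups stood apart, and the isotype libraries of 24 h were back in or above the untreated range. Ccr2 was lower with FcMR than with isotype by 2.18-fold at 4 h (log2 fold change -1.13, SE 0.339, edgeR adjusted p 0.0278), 3.96-fold at 12 h (-1.98, SE 0.348, 0.000508) and 8.73-fold at 24 h (-3.13, SE 0.363, 4.72e-06). At 24 h its log2 fold change was number 31 from the lowest among the 13468 tested genes. The effect at 24 h was lower than that at 4 h by 4-fold (log2 difference -2.0, SE 0.484, adjusted p 0.0103).

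The 4 h decrease of Ccr2 was the least secure of its calls. It was lost without isotype replicate 1 (-1.1, adjusted p 0.0695), isotype replicate 2 (-0.75, 0.198), FcMR replicate 2 (-1.01, 0.128) or FcMR replicate 3 (-1.0, 0.105), and in 4 of the other fits, with adjusted p of 0.062 to 0.129. At 12 h and 24 h the calls held in every fit that was run. Between isotype and untreated, Ccr2 was 1.87-fold lower at 12 h (edgeR adjusted p 0.0348), a call that was lost when any of untreated replicates 1, 2 and 3 or isotype replicates 2 and 3 was left out (adjusted p 0.0558 to 0.158). The log2 differences at 4 h (-0.6, adjusted p 0.168) and 24 h (0.08, 0.863) did not pass. The 4 h difference passed with a correction for GC content (-0.95, adjusted p 0.00319), with a replicate block (-0.67, 0.0326) and with both (-0.97, 4.26e-05), and it ranged from -0.96 to -0.31 when 1 library was left out. With FcMR, Ccr2 was below untreated by 3.32-fold at 4 h, 7.39-fold at 12 h and 8.25-fold at 24 h, all of which passed.

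Ccr1 (ENSMUSG00000025804.5, minus strand, chromosome 9, 123962124 to 123968692), a receptor for Ccl3, Ccl5, Ccl6, Ccl7 and Ccl9, went down in both arms and returned in the isotype arm. It was at 345, 406 and 446 CPM in untreated cells. The 4 h values were 216, 297 and 159.5 CPM with isotype and 161, 137 and 130.1 CPM with FcMR, where FcMR replicate 1 lay just above isotype replicate 3. At 12 h they were 211, 198 and 177 CPM with isotype and 138, 96.7 and 85.3 CPM with FcMR, which do not overlap. At 24 h isotype libraries agreed closely at 369.7, 361 and 369 CPM, and FcMR libraries stood lower at 269, 308 and 224 CPM. Ccr1 was 1.57-fold lower with FcMR at 4 h (log2 fold change -0.65, SE 0.197, edgeR adjusted p 0.0283) and 1.83-fold lower at 12 h (-0.88, SE 0.197, 0.00417). The 24 h difference of -0.46 (SE 0.195, adjusted p 0.117) did not pass, although it did with a correction for GC content (-0.55, 0.000282). The 4 h call was lost without isotype replicate 1 (-0.68, adjusted p 0.0565), isotype replicate 2 (-0.35, 0.284), FcMR replicate 2 (-0.62, 0.113) or FcMR replicate 3 (-0.6, 0.11), and in 5 of the other fits. Isotype cells were below untreated by 1.78-fold at 4 h (edgeR adjusted p 0.0029) and 2.04-fold at 12 h (0.000391), with a log2 difference of -0.12 at 24 h (0.644). The 4 h call was lost with only the groups compared in the fit (-0.84, adjusted p 0.0512). FcMR cells were below untreated by 2.8-fold at 4 h, 3.75-fold at 12 h and 1.49-fold at 24 h, the last lost without untreated replicate 3 (-0.49, adjusted p 0.0774) or FcMR 24 h replicate 3 (-0.47, 0.0782).

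Cxcr4 (ENSMUSG00000045382.6, minus strand, chromosome 1, 128588199 to 128592293), the Cxcl12 receptor, was the 1 member whose FcMR effect passed in opposite directions at different times. Untreated libraries held 126, 146 and 147 CPM. At 4 h the values were 72.7, 64.04 and 68.8 CPM with isotype and 45.8, 40.5 and 38.01 CPM with FcMR. At 12 h they were 91.03, 82.2 and 90.6 CPM with isotype and 67.1, 59.1 and 56.4 CPM with FcMR. FcMR was the lower group at both times, with no overlap. At 24 h the order turned, with 114, 115 and 122 CPM for isotype and 156, 139.5 and 162 CPM for FcMR, again without overlap. The log2 fold change against isotype was -0.72 at 4 h (SE 0.095, edgeR adjusted p 3.72e-05), -0.53 at 12 h (SE 0.093, 0.000474) and 0.38 at 24 h (SE 0.092, 0.00575). The effect at 24 h minus that at 4 h was 1.1 (SE 0.132, adjusted p 2.6e-05), a difference called in 13.9% of all genes. All of these calls held in every fit that was run. Relative to untreated, Cxcr4 fell 2.04-fold with isotype and 3.36-fold with FcMR at 4 h (edgeR adjusted p 1.17e-07 and 5.53e-11). At 24 h FcMR cells were at the untreated level within error (log2 difference 0.12, SE 0.092, adjusted p 0.269) and isotype cells were 1.19-fold below it (0.033). That last call did not pass without untreated replicate 2 (-0.22, 0.109), untreated replicate 3 (-0.22, 0.114), isotype 24 h replicate 1 (-0.24, 0.0952) or isotype 24 h replicate 2 (-0.24, 0.0922), nor in 5 of the other fits.

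Cx3cr1 (ENSMUSG00000052336.7, minus strand, chromosome 9, 119901616 to 120069879), the fractalkine receptor, was the lowest member, with 19 to 643 counts per library. Its annotated span overlaps 9 other genes, some on the opposite strand, while the spans of the other members overlap none. The sources used here do not say whether counting used strand. Whether the overlap affects the counts of Cx3cr1 was not tested. Untreated libraries held 1.85, 2.62 and 3.76 CPM. With isotype it was at 4.16, 5.77 and 5.21 CPM at 4 h, 11.05, 11 and 9.74 CPM at 12 h and 12.1, 11.1 and 8.75 CPM at 24 h. With FcMR it was at 3.75, 3.27 and 3.54 CPM at 4 h, 4.92, 4.45 and 4.32 CPM at 12 h and 10.2, 10.7 and 11.2 CPM at 24 h. Libraries with FcMR were thus below the isotype range at 4 h and 12 h and inside it at 24 h. The difference passed at 12 h, where FcMR was 2.31-fold lower (log2 fold change -1.21, SE 0.182, edgeR adjusted p 0.000111), and not at 4 h (-0.52, SE 0.202, 0.0869). At 24 h the log2 difference rounded to 0.0 with an SE of 0.177 (adjusted p 1). Cx3cr1 rose from untreated to isotype by 1.83-fold at 4 h, 3.83-fold at 12 h and 3.87-fold at 24 h (edgeR adjusted p 0.00269, 2.3e-07 and 2.5e-07). With FcMR the log2 difference from untreated was 0.35 at 4 h (adjusted p 0.162), 0.73 at 12 h (0.00475) and 1.95 at 24 h (1.53e-07). The 4 h value passed without untreated replicate 3 (0.62, adjusted p 0.0178). With only the groups compared in the fit, the calls against untreated were lost for isotype at 4 h (0.86, adjusted p 0.0916) and for FcMR at 12 h (0.73, 0.0698).

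A joint test asked whether the FcMR effect differed among the 3 times. It passed for Cxcr4 (edgeR adjusted p 5.05e-05), Ccrl2 (0.012), Cx3cr1 (0.0121) and Ccr2 (0.0295), 4 of the 6 members, against 11% of all genes. Ccr1 (0.605) and Ccr7 (0.286) did not pass, although both did with a correction for GC content (0.0148 and 0.0321). The Ccr2 call was lost when isotype 4 h replicate 1, FcMR 4 h replicate 1 or 2, isotype 24 h replicate 1, or FcMR 24 h replicate 2 or 3 was left out (adjusted p 0.0511 to 0.094). The Ccrl2 call was lost without a filter on low counts (adjusted p 0.116), with the authors' factors (0.405) and with limma on their table (0.389), and the Cx3cr1 call with that limma fit (0.0597). The comparisons with untreated share their 3 control libraries at all times. Of the 6 members, isotype against untreated passed in 4 at 4 h, against 35.6% of all genes, with Ccr1 and Cxcr4 lower (15.2%) and Cx3cr1 and Ccrl2 higher (20.4%). At 12 h it passed in all 6 (41.6% of all genes), with Ccr1, Ccr2 and Cxcr4 lower (19.6%) and Ccr7, Cx3cr1 and Ccrl2 higher (22%). At 24 h it passed in 4 (42.2%), with Cxcr4 and Ccrl2 lower (20.9%) and Ccr7 and Cx3cr1 higher (21.3%). FcMR against untreated passed in 5, 6 and 5 members at 4 h, 12 h and 24 h, against 48.2%, 48.1% and 51.4% of all genes.

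Ccr2 lies in a cluster of receptor genes on chromosome 9. Ccr3 starts 80.0 kb before it and Ccr1 133 kb before it. Ccr3, an eosinophil receptor at 1.15 ± 0.155 CPM with isotype and 1.19 ± 0.52 CPM with FcMR at 24 h, gave log2 differences of -0.15, 0.6 and 0.12 at the 3 times, none of which passed. Xcr1 and Ccr9, which lie farther off in the cluster, did not pass either, and Ccr1l1 and Cxcr6 had at most 12 counts in any library. Of the 6745 distinct 31-base words of Ccr2 transcripts, 3.48% occurred in another gene. For Ccr1 the share was 0.642%, mostly with Ccr3, for Cx3cr1 3.28%, and for the other members at most 0.231%.

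**Figure D3:**
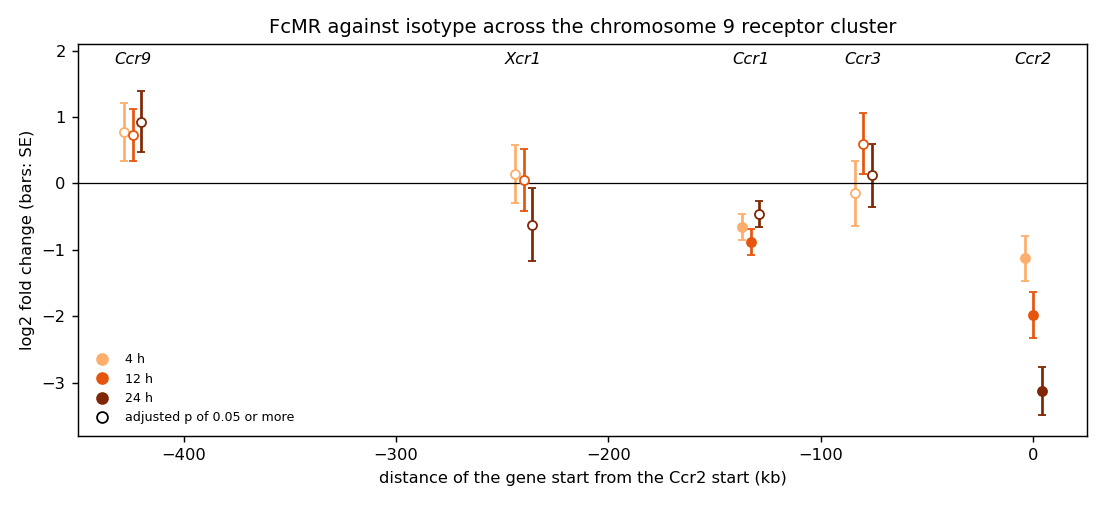
The log2 fold change of FcMR against isotype (vertical axis, bars show SE, time by colour, open symbols for an adjusted p of 0.05 or more) is plotted against distance in kb from the start of Ccr2 for 5 receptor genes of the cluster. Ccr2 has the lowest value of the 5, at -3.13 after 24 h, while none of the values of Ccr3, which lies between Ccr1 and Ccr2, passed the test.

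The ligands of the 6 receptors were examined as a list of 12 genes, of which 8 could be tested. At 4 h, 4 were higher with FcMR and none lower, against 8.62% and 9.13% of all genes tested, with a median log2 difference of 1.08 against -0.07 over all genes. At 12 h, 3 were higher and none lower (8.61% and 7.49% of all genes; median 0.3 against -0.02), and at 24 h, 2 were higher and 4 lower (11.4% and 9.44%; median -0.43 against 0.01). Ccl2, Ccl7 and Ccl12, the ligands of Ccr2, were all lower at 24 h, with log2 fold changes of -1.94, -2.8 and -2.35 (edgeR adjusted p 2.44e-05, 3.83e-06 and 0.00272). Ccl12 was near the floor, at 0.969 ± 0.634 CPM with isotype and 0.161 ± 0.0842 CPM with FcMR at 24 h. In those FcMR libraries 3 counts were worth 0.114 to 0.377 CPM. The Ccl12 call was lost with only the groups compared in the fit (-2.36, edgeR adjusted p 0.069). Ccl2 stood at 61.7 ± 18.5 CPM with isotype and 15.9 ± 3.17 CPM with FcMR at that time, and Ccl7 at 7.99 ± 2.6 and 1.12 ± 0.138 CPM. At 4 h both had been higher with FcMR, by 1.36 each on the log2 scale (edgeR adjusted p 0.000849 for Ccl2 and 0.00099 for Ccl7), and Ccl12 differed by 0.8 (0.128). In the reported fit, Ccr2 and its ligands Ccl2 and Ccl7 passed in opposite directions at 4 h and in the same direction at 24 h. The 4 h contrast rests on the Ccr2 call (edgeR adjusted p 0.0278), which was lost in several other fits, with adjusted p of up to 0.198.

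Among the ligands of Ccr1, Ccl5 rose at all 3 times, from 263 ± 135 to 909 ± 139 CPM at 4 h and from 622 ± 64.2 to 2075 ± 222 CPM at 24 h (log2 fold change 1.79, 1.66 and 1.74 at 4 h, 12 h and 24 h). Ccl3 rose from 532 ± 44.5 to 3901 ± 344 CPM at 4 h (2.87, SE 0.112, edgeR adjusted p 5.6e-11) and was 1.68 higher at 12 h (9.56e-09), with a difference of 0.05 at 24 h (0.804). Ccl6 was lower at 24 h (-0.6, edgeR adjusted p 0.00025) and gave differences of 0.02 and 0.0 before that, and Ccl9 did not pass at any time (0.29, -0.08 and -0.26). Cx3cl1, or fractalkine, the ligand of Cx3cr1, was at 14.02 ± 0.666 CPM with isotype and 26.5 ± 4.75 CPM with FcMR at 24 h (0.91, SE 0.208, edgeR adjusted p 0.00373). It was also higher at 12 h (0.61, 0.043), a call lost without isotype 12 h replicate 1, 2 or 3 or FcMR 12 h replicate 2 or 3 (adjusted p 0.0692 to 0.152), and at 4 h the difference was 0.5 (0.0874). The 12 h call was also lost without a filter on low counts (edgeR adjusted p 0.0595) and with the authors' factors (0.152). With limma on the authors' table it did not pass either (limma adjusted p 0.185). Cxcl12, the ligand of Cxcr4, had at most 10 counts in any library and was not tested. For Ccl19 and Ccl21a, the ligands of Ccr7, and Rarres2, which encodes chemerin, no row of the count table was matched, so they were not tested.

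**Figure D4:**
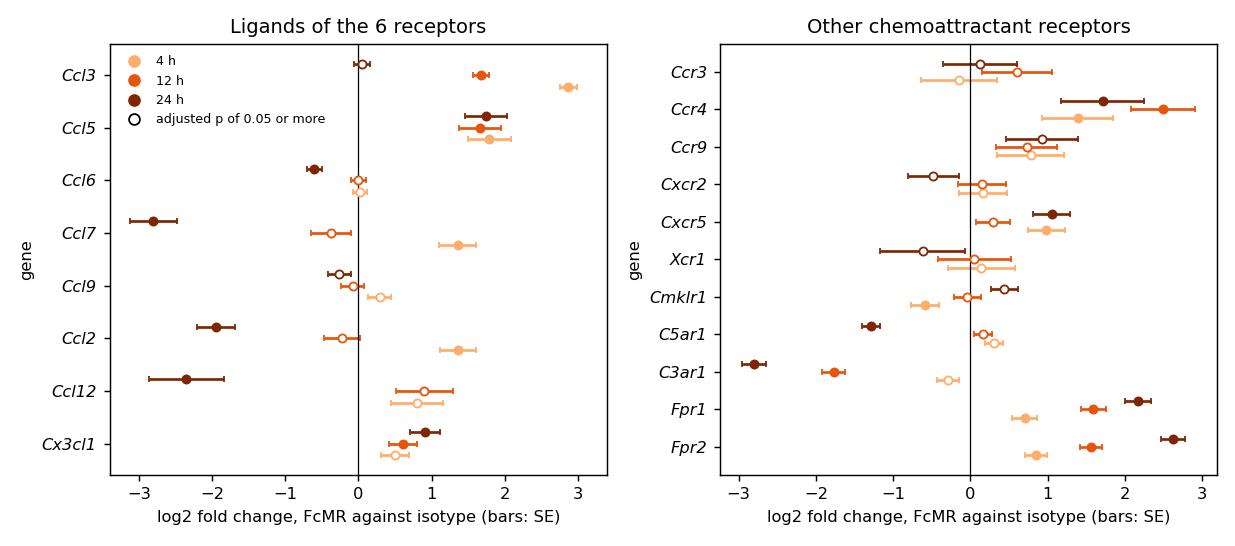
The log2 fold change of FcMR against isotype is plotted on the horizontal axis for the 8 tested ligands (left) and 11 other chemoattractant receptors (right), with SE bars, time by colour and open symbols for an adjusted p of 0.05 or more. Ccl2 and Ccl7 move from above 0 at 4 h to below 0 at 24 h, Fpr1 and Fpr2 lie above 0 at all times, and C3ar1 reaches -2.8 at 24 h.

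Other chemokine and chemoattractant receptors formed a list of 23 genes, 11 of them tested. With FcMR, 4 were higher and 1 lower at 4 h, 3 higher and 1 lower at 12 h, and 4 higher and 2 lower at 24 h, with medians of 0.3, 0.29 and 0.44 against -0.07, -0.02 and 0.01 over all genes. Of all genes tested, 17.7%, 16.1% and 20.9% passed at these times. Fpr1 and Fpr2, receptors for formylated bacterial peptides, rose at all times. Fpr2 went from 50.03 ± 4.11 to 307 ± 61.2 CPM at 24 h (log2 fold change 2.62, SE 0.152, edgeR adjusted p 1.09e-09), and Fpr1 from 32.1 ± 1.49 to 145 ± 22.8 CPM (2.17, SE 0.164, 2.84e-08). C3ar1, the receptor of the complement fragment C3a, fell from 336 ± 17.5 to 48.1 ± 7.13 CPM at 24 h (-2.8, SE 0.153, 5.08e-10) and was also lower at 12 h (-1.77, 1.65e-07). C5ar1, the receptor of C5a, fell from 99.9 ± 6.49 to 40.99 ± 5.71 CPM at 24 h (-1.29, 2.97e-07). Cmklr1, the signalling receptor for chemerin, was lower at 4 h (-0.59, SE 0.184, edgeR adjusted p 0.0328) while Ccrl2, which binds the same ligand, was higher. That Cmklr1 call was lost without isotype 4 h replicate 3 (-0.36, 0.152) or any 1 of the 3 FcMR 4 h libraries (0.0667 to 0.0777). It was also lost without a filter on low counts (edgeR adjusted p 0.142), with the authors' factors (0.115) and with only the groups compared (0.125). Without both libraries out of title order (0.0863) and with limma on the authors' table (limma adjusted p 0.145) it did not pass either. Cxcr5 was at 1.49 ± 0.215 CPM with isotype and 3.08 ± 0.227 CPM with FcMR at 24 h (1.05, 0.00345), and this difference became 0.19 (adjusted p 0.799) with the authors' factors as offsets. Ccr4, named after its values were seen, was higher at all 3 times (1.39, 2.49 and 1.71), at levels of at most 4.43 ± 0.556 CPM in any group.

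Genes that carry or end the receptor signal formed a list of 24, all tested. FcMR gave 2 higher and 3 lower at 4 h, 1 higher and 6 lower at 12 h, and 1 higher and 10 lower at 24 h, with medians of -0.07, -0.11 and -0.24 against -0.07, -0.02 and 0.01 over all genes. The share of all genes that passed was 17.7%, 16.1% and 20.9%, so the 5 calls at 4 h are near the background. Rgs2, a regulator that shortens G protein signalling, fell from 265 ± 20.7 to 76.7 ± 7.75 CPM at 24 h (log2 fold change -1.79, SE 0.158, edgeR adjusted p 1.86e-07) and was lower at 4 h (-0.63, 0.00872) and 12 h (-1.71, 5.44e-07). Its 4 h call was lost without isotype replicate 2 (-0.47, adjusted p 0.0955). The same call was lost without a filter on low counts (-0.5, edgeR adjusted p 0.0653) and with the authors' factors (-0.54, 0.0595). It was also lost with only the groups compared in the fit (-0.63, 0.057) and with limma on the authors' table (-0.53, limma adjusted p 0.0635). Plcb2, a phospholipase activated by G protein subunits, was lower at 12 h (-1.18, 1.25e-05) and 24 h (-1.01, 4.59e-05). Dock2, an activator of Rac that leukocytes need to migrate, was lower at the same times (-0.9, 4.49e-06, and -0.66, 9.51e-05). Arrb1, the beta-arrestin that uncouples receptors, was lower at 4 h (-0.62, edgeR adjusted p 5.67e-05), and with the authors' factors that difference was -0.32 (0.122). It was also lower at 12 h (-0.62, 3.92e-05) and 24 h (-0.35, 0.00546). Pik3cg, the PI3 kinase catalytic subunit under G protein control, rose from 107 ± 2.58 to 163 ± 11.2 CPM at 24 h (0.61, 0.000217) and was higher at 12 h (0.44, 0.00438). At 4 h the kinase Ptk2b (0.43, 0.00459) and the regulator Rgs1 (0.73, 0.0211) were higher and the regulator Rgs19 lower (-0.37, 0.0361). Ptk2b was lower with FcMR at 24 h (-0.58, adjusted p 0.000243), and its 4 h call was lost with only the groups compared in the fit (0.43, 0.0781). The Rgs1 call was lost without isotype 4 h replicate 3 or FcMR 4 h replicate 1 or 2 (adjusted p 0.0607 to 0.085), and the Rgs19 call without any 1 of isotype 4 h replicates 1, 2 and 3 or FcMR 4 h replicates 2 and 3 (0.0707 to 0.132). Other fits also lost the Rgs19 call, among them those without a filter on low counts (edgeR adjusted p 0.293) and with only the groups compared (0.158).

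Within groups, Ccr2 varied with the replicate number in the titles. It was lowest in replicate 3 in all 7 groups, a pattern found in 74 of the 13468 tested genes (0.549%). The replicate number held 60.1% of its within-group variance of log2 CPM, and 181 genes (1.34%) reached that share. Ccl2, the ligand of Ccr2, was lowest in replicate 3 in all 7 groups as well, with 73.2% of its variance by number. The libraries also differed in GC tilt, taken as the mean log2 deviation of the 10% of genes richest in GC minus that of the 10% poorest, with a lowest value of -1.595 (isotype 4 h replicate 2) and a highest of 0.834 (isotype 12 h replicate 3). Ccr1 and Ccr2 transcripts are poor in GC (39.1% and 39.0%), and the other members hold 48.9% to 53.5%. Ccr1 was highest in the library of lowest tilt in 5 of 7 groups and lowest in that of highest tilt in 6, for Ccr2 the counts were 5 and 4, and for Cxcr4, at 49.2% GC, they were 2 and 2. For Cx3cr1, at 50.2% GC, the counts were 4 and 4, for Ccr7 0 and 2, and for Ccrl2 1 and 1. The Pearson r of within-group deviations with the tilt was -0.9 for Ccr1 and -0.78 for Ccr2. It had the other sign for Ccr7 (0.78) and Ccrl2 (0.59), and was -0.18 for Cx3cr1 and -0.03 for Cxcr4. The part of the replicate number and of GC tilt in the FcMR differences was not tested beyond the fits with a block or a GC correction.

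**Figure D5:**
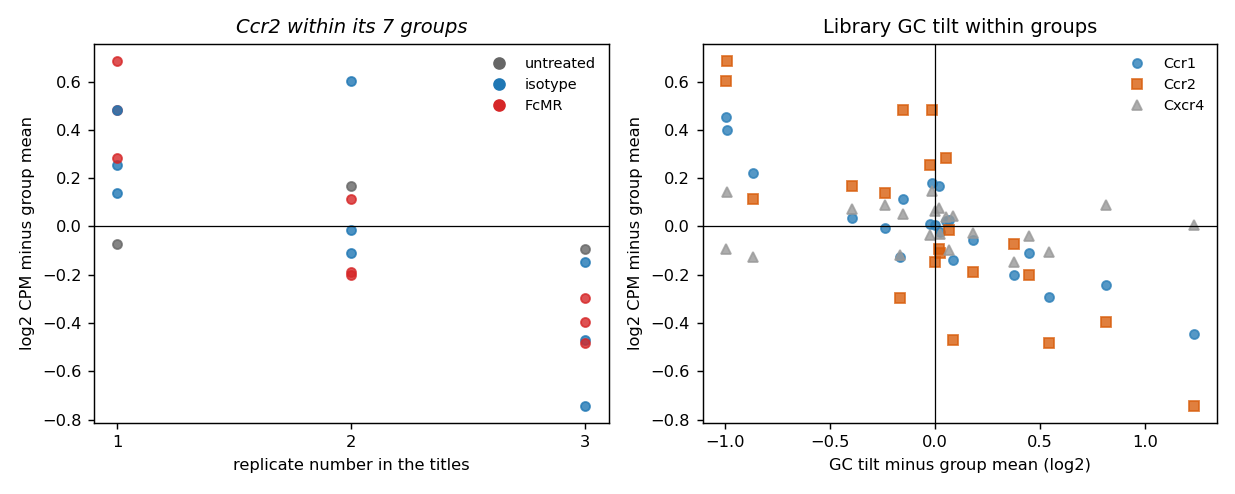
The left panel plots the log2 CPM of Ccr2 minus its group mean against replicate number for the 7 groups, and the right panel plots the same quantity for Ccr1, Ccr2 and Cxcr4 against the library's GC tilt minus its group mean, with 21 libraries each. All 7 replicate 3 values of Ccr2 lie below 0, and Ccr1 and Ccr2 are higher where the tilt is lower.

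The genes whose log2 CPM was most like each receptor over the 21 libraries were taken from 8811 genes whose log2 CPM averaged 3 or more. The libraries share treatments and times, so these Pearson r values are a description. For Ccrl2 they were Ptgs2 (0.994), which encodes the inducible cyclooxygenase, Mtmr7 (0.988) and the neutrophil chemoattractant gene Cxcl1 (0.984). For Ccr2 they were Atp6v0d2 (0.96), Pparg (0.932), a nuclear receptor of alveolar-type macrophages, and Hpgds (0.931), a prostaglandin D synthase. Ccr7 was most like Pla2g16 (0.966), the chemokine gene Ccl5 (0.943) and Slpi (0.941). Ccr1 was most like Xpr1 (0.961), Arhgap18 (0.945) and Ivns1abp (0.94), Cxcr4 most like Fbxo32 (0.954), Tef (0.947) and Fbxl20 (0.945), and Cx3cr1 most like Gpt2 (0.929), Slco5a1 (0.924) and Creg1 (0.922).

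Markers of other cell types also moved between the groups, and the single markers given here were picked after their values were seen. The 10 mature dendritic cell markers summed to 1422 to 1607 CPM with isotype and 3676 to 3893 CPM with FcMR at 24 h, with 4, 5 and 6 of them higher at 4 h, 12 h and 24 h and none lower, against 8.62%, 8.61% and 11.4% of all genes higher. Cd40, a costimulatory receptor, was among those higher at each time (log2 fold change 1.79, 1.98 and 1.85), and so was the chemokine gene Ccl22 (0.91, 1.21 and 1.89). Ccl22 made up most of the sum with FcMR, at 646 ± 45.9 CPM with isotype and 2398 ± 56.1 CPM with FcMR at 24 h. Fscn1, which bundles actin in mature dendritic cells, was not called at any time (1.0, 0.64 and 0.6), and neither were Il4i1, Relb and Cacnb3. At 24 h the 9 dendritic cell markers summed to 2444 to 2561 CPM with isotype and 2307 to 2564 CPM with FcMR. Of them, 1 was higher with FcMR and none lower at 4 h, and 1 higher and 2 lower at 12 h. At 24 h, 2 were higher and 1 lower. Of all genes, 9.13%, 7.49% and 9.44% were lower at these times. The 5 monocyte markers summed to 1294 to 1608 CPM with isotype and 1987 to 2064 CPM with FcMR at 24 h, where Ly6c2 (1.04) and Ms4a4c (2.24) were higher and F13a1 (-1.37) lower. The 9 neutrophil markers went from 1399.6 to 1628 CPM in untreated libraries to 183 to 218 CPM with isotype and 203 to 228 CPM with FcMR at 24 h. Against isotype at that time Ltf (-2.27, edgeR adjusted p 1.73e-05) and Ngp (-0.91, 0.0107) were lower with FcMR and S100a8 higher (0.69, 0.005). The 7 eosinophil, basophil or mast cell markers went from 635 to 833 CPM to 83.0 to 119 CPM with isotype and 67.2 to 101 CPM with FcMR over the same span. Siglecf was the 1 marker of these called against isotype, lower with FcMR at 12 h (-1.19, edgeR adjusted p 4.87e-05) and 24 h (-2.13, 8.85e-08). The 6 stroma markers, 3 of them tested, summed to 0.9 to 1.37 CPM with isotype and 8.59 to 11.4 CPM with FcMR at 24 h, and to at most 17.7 CPM in any library. Pdgfrb was called higher with FcMR at 4 h, 12 h and 24 h (0.99, 2.89 and 4.73, edgeR adjusted p 0.0393, 1.67e-06 and 3.03e-07), and Dcn, at 0.0981 ± 0.17 CPM with isotype and 2.97 ± 0.638 CPM with FcMR at 24 h, was called higher at 12 h and 24 h (edgeR adjusted p 0.0424 and 0.000288). The part of these cell types in the receptor differences was not tested.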

How the data were processed

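RNA libraries (TruSeq RNA v2, 75 bp single-end reads, per the labels' protocols) of 21 samples were analysed. The deposited raw table holds estimated counts per gene as whole numbers; the submitters' processing notes name CASAVA 1.8.2, kallisto 0.44.0 and DESeq2 and the builds mm10 and GRCm38, without roles. The deposited normalized table holds a signal, the count divided by a factor specific to gene and library, and served alternatives only. Identifiers were matched to GENCODE M21: 23206 of 23250 genes had a symbol, and 21250 matched with their version. There were 0 other per-sample columns.

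Counts were tested with edgeR 4.0.16 (R 4.3.3) by quasi-likelihood F tests with TMM factors, filterByExpr, 1 coefficient per group and no replicate block, over 13468 genes, with Benjamini-Hochberg adjusted p under 0.05 as the threshold. SE is the log2 fold change divided by the square root of F. Alternatives used DESeq2 1.42.0, limma 3.58.1 on log2(normalized value + 1), other filters and scalings, a GC correction, a replicate block, and omission of libraries. The procedure was tested on simulated data that held the same spread for all genes and no GC tilt or replicate effect. The members and lists were chosen with earlier results of these data known. Named genes were the members, their ligands, Ccr3, and up to 3 called genes per direction and time of the other receptor and signalling lists whose log2 CPM averaged 1 or more. Ccr4 and single cell type markers were named outside this rule, after their values were seen. One gene that the rule names is not reported here. Promoter windows are RefSeq's. Depth limits precision: the floor of 3 counts covers counting error only.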

Additional observations from a re-analysis of the deposited data

Results flagged for a closer look

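The effect of FcMR against isotype differed among 4 h, 12 h and 24 h for 4 of the 6 receptors by the joint test (edgeR's quasi-likelihood test, adjusted over all genes), which 11% of all tested genes passed. For Cxcr4 the adjusted p was 5.05e-05, with log2 fold changes of -0.72, -0.53 and 0.38. For Ccrl2 it was 0.012, with 1.75, 1.72 and 2.25. For Cx3cr1 it was 0.0121, with -0.52, -1.21 and a value that rounded to 0.0. For Ccr2 it was 0.0295, with -1.13, -1.98 and -3.13.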

How the results depend on the processing

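The alternatives were 11 other settings and the omission of each library. For FcMR against isotype, every call of Ccrl2 and Cxcr4, and those of Ccr1 at 12 h, Ccr2 at 12 h and 24 h, Ccr7 at 24 h and Cx3cr1 at 12 h, kept direction and threshold in every one. Ccr1 at 4 h did not pass with RLE factors (-0.6), without a filter (-0.53), with the authors' factors (-0.59), with limma (-0.55) or with only the groups compared (-0.65). Ccr2 at 4 h did not pass in the last 4 of these (-0.99, -1.02, -0.98 and -1.13), nor Ccr7 at 4 h with only the groups compared (0.55). Ccr7 at 12 h passed with GC correction (0.37), with GC correction and block (0.37) and without both libraries out of title order (0.4), and Ccr1 at 24 h with both GC fits (-0.55 each). Cx3cr1 at 24 h turned to 0.01 without a filter and with limma, and the 24 h minus 4 h difference of Ccr1 to -0.11 with both GC fits. The fit on the groups compared took its scaling factors and its estimate of the spread from those libraries alone. Why calls changed in this or the other fits was not tested. The calls of the other named genes held 375 times and were lost 28 times under the 11 settings, held 210 times and were lost 18 times when 1 library was left out, and never changed sign.

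Omitting 1 library gave 4 h ranges of -0.85 to -0.35 for Ccr1, -1.42 to -0.75 for Ccr2 and 0.43 to 0.75 for Ccr7, and -0.12 to 0.1 for Cx3cr1 at 24 h. The Ccr1 difference between 24 h and 4 h ranged from -0.1 to 0.39, and Ccr2 in isotype against untreated at 24 h from -0.06 to 0.17. Genes called ranged from 1287 to 2875 for 24 h minus 4 h (1873 in the reported fit) and from 973 to 2322 for the joint test (1484).

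Genes called for FcMR against isotype at 4 h (2390) became 3753 with GC correction, 3940 with GC correction and block, 791 (603 higher, 188 lower, against 1161 and 1229) with only the groups compared and 3942 without both libraries out of title order. At 12 h (2169) both GC fits gave 3368 and 3562. For 24 h minus 4 h the counts were 1199 without a filter, 3152 and 3350 with both GC fits and 3735 without both libraries. For the joint test they were 925, 2996, 3200 and 2620 in the same order. Isotype against untreated at 4 h (4792) gave 2837 with only the groups compared.

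Over all tested genes, correlations of same-numbered deviations lay between -0.166 and 0.199 for FcMR and isotype. Ccr2 and Ccl2 were still lowest in replicate 3 in all 7 groups. These values do not settle whether the replicate numbers pair the samples. A replicate block moved the genes called at 4 h to 2541, at 12 h to 2290 and at 24 h to 2911. Of the member calls it altered only Ccr2 in isotype against untreated at 4 h (-0.67, adjusted p 0.0326).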
